A study of Homo sapiens with 6 samples.

Results

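The genes described here belong to the restriction-point machinery that governs entry into S phase: the activator E2F genes E2f1, E2f2 and E2f3, the pocket protein genes Rb1 and Rbl1, the cyclin genes Ccnd1, Ccne1 and Ccne2, the kinase gene Cdk2 and the kinase inhibitor gene Cdkn1b. They were taken by gene name from the deposited gene tables, and all 10 were found among 53492 genes. Polyadenylated RNA was sequenced in 2 groups of 3 libraries, 6 in all, which the labels name GFP and GFP-CCNB1IP1. Every library is given as SH-SY5Y, a human neuroblastoma line, transfected with the vector pCS2-eGFP-N in the GFP group or with pCS2-eGFP-CCNB1IP1 in the other, so that both groups carry a green fluorescent protein vector. CCNB1IP1 is an E3 ubiquitin ligase that binds cyclin B1 and takes part in meiotic crossing over. The vector dose, the time after transfection and any selection of transfected cells are not stated in the labels, nor is it said whether replicates were separate cultures. The p-values therefore rest on a spread between libraries that could be technical.

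Pocket proteins such as RB (Rb1) and p107 (Rbl1) bind E2F transcription factors and hold their target genes down. Cyclin D1 with CDK4 or CDK6, and then cyclin E with CDK2, phosphorylate the pocket proteins and release E2F, which switches on the genes of DNA replication, among them E2f1, Rbl1 and the cyclin E genes themselves. The inhibitor p27 (Cdkn1b) binds cyclin E-CDK2 and restrains it. Loss of this brake through RB loss or through excess cyclin D is common in tumours, and high cyclin D1 is well known in neuroblastoma.

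The tables carried mouse identifiers throughout: all 53492 identifiers had the mouse prefix, and 0 matched the 62700 identifiers of a human gene table, so the values are those of mouse genes in libraries labelled as a human line. Of 10 markers of neuroblastoma, 8 had a mean of at least 1 FPKM, with Hand2 between 111 and 140 FPKM and Phox2a between 99.6 and 115. The mouse gene Ccnb1ip1 was at 0.0334, 0.125 and 0.0698 FPKM with GFP alone, and 7.36e-08, 0.133 and 0.191 FPKM with GFP-CCNB1IP1, which does not check the labels if the introduced sequence was human; its species was not checked here. Of 6 macrophage markers, 5 were highest in GFP-CCNB1IP1 replicate 2, and their sum was 5.15 FPKM there, with Csf1r at 2.05 and Adgre1 at 0.665, and between 0.465 and 0.842 FPKM in the other libraries; that library was also the shallowest, at 0.742 of the mean relative depth of the GFP libraries. The 5 Schwann cell markers summed to 3.24 to 3.88 FPKM in the GFP libraries and to 4.11 to 4.50 in the others, with Sox10 at 0.199 or less, and the neuroblastoma markers to 343 to 385 and 322 to 346 FPKM. The 5 epithelial markers summed to 0.210 to 0.376 FPKM with GFP and to at most 0.199 with GFP-CCNB1IP1, and the 8 fibroblast markers to 6.06 to 7.77 FPKM with GFP and 6.42 to 7.95 with GFP-CCNB1IP1. The part of the Schwann cell and epithelial markers, whose sums did not overlap between the groups, in the results was not tested.

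The machinery was expressed at modest and graded levels. The gene of cyclin D1 stood highest and that of RB lowest, and E2f1 was the most abundant of the activator E2Fs. Values are in FPKM, fragments scaled by transcript length and by library size. Comparing different genes per length assumes that reads matched each mouse gene equally well. With libraries labelled as a human line that assumption may not hold, and it was not tested. The mean over the 6 libraries was 38.4 FPKM for Ccnd1, 28.4 for Cdkn1b, 20.4 for E2f1, 18.2 for Ccne1, 16.5 for Cdk2, 12.5 for Ccne2, 8.76 for E2f2, 6.71 for Rbl1, 6.25 for E2f3 and 4.63 for Rb1. Of the 9 pairs of neighbours in that order, 3 did not overlap in their ranges over the 6 libraries: Ccnd1 above Cdkn1b, Cdkn1b above E2f1, and E2f3 above Rb1. The other 6 pairs, from E2f1 down to E2f3, overlapped in range. Among them Ccne2 stood above E2f2, and E2f2 above Rbl1, in each library. For the rest of these pairs the order changed between libraries, so it is not firm. Among 13231 genes with a mean of at least 1 FPKM, the set that was tested, Ccnd1 lay at percentile 85.1 of the mean level and Rb1 at percentile 26.4.

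**Figure D1:**
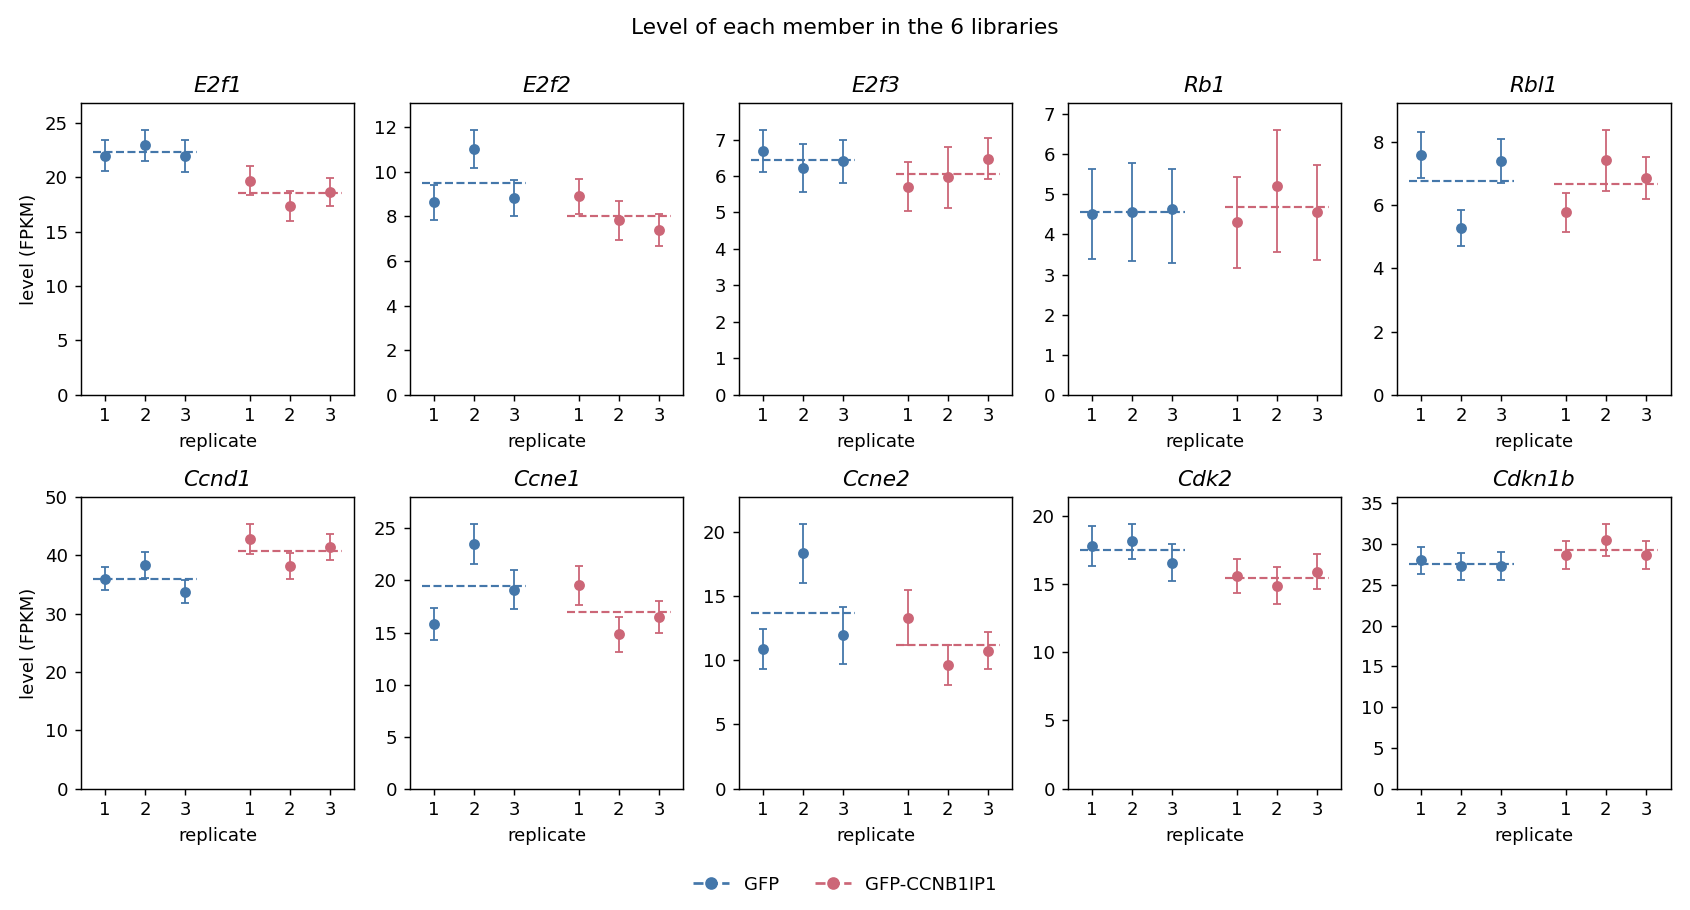
Level in FPKM (vertical axes, from 0) of each of the 10 genes in the 3 GFP and the 3 GFP-CCNB1IP1 libraries (horizontal axes, replicate number), with the deposited confidence interval of its main row as bars and the group mean as a dashed line. For E2f1 and Cdk2 the GFP-CCNB1IP1 libraries all lie below the GFP libraries, for Cdkn1b all above, and GFP replicate 2 is the highest GFP library for E2f2, Ccne1 and Ccne2 and the lowest for Rbl1.

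Between the groups the differences were modest, with mean FPKM in the GFP-CCNB1IP1 libraries from 0.818 times the GFP mean for Ccne2 to 1.13 times for Ccnd1. E2f1 had 0.832 times its GFP mean, Cdk2 0.883 times, Cdkn1b 1.06 times, Rb1 1.03 times and Rbl1 0.989 times. None of the 10 genes passed the test (limma on log2(FPKM + 1), adjusted p under 0.05 over all 13231 genes), where 0.00756% of all genes tested passed. At an unadjusted p under 0.05 there were 3 of 10, E2f1 and Cdk2 lower and Ccnd1 higher in the GFP-CCNB1IP1 libraries, against 11.4% of all genes tested. That count was 1 of 10 with the replicate number as a block, without GFP replicate 1 or without GFP-CCNB1IP1 replicate 1. The groups did not overlap for 3 of 10, against 17.6% of all genes tested: E2f1 and Cdk2 were lower without overlap, as were 8.9% of all genes, and Cdkn1b was higher, as were 8.7%. On the log2 scale the difference was below 0 for 7 of the 10, with a median of -0.12, against 48.6% and a median of 0.0037 over all genes tested. The median of the 10 was -0.0708 without GFP replicate 2. In bulk libraries such as these, fewer cells in a phase of the cycle and less RNA per cell cannot be told apart. GFP-CCNB1IP1 replicate 2 was the library with the macrophage markers. Without it the log2 fold change was -0.209 for E2f1, -0.143 for Cdk2, 0.221 for Ccnd1 and 0.0556 for Cdkn1b. These kept their sign, but Rb1 turned from 0.0283 to -0.0365, and 8 of the 10 members were below 0. The part of the macrophage markers in the results was not tested.

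**Figure D2:**
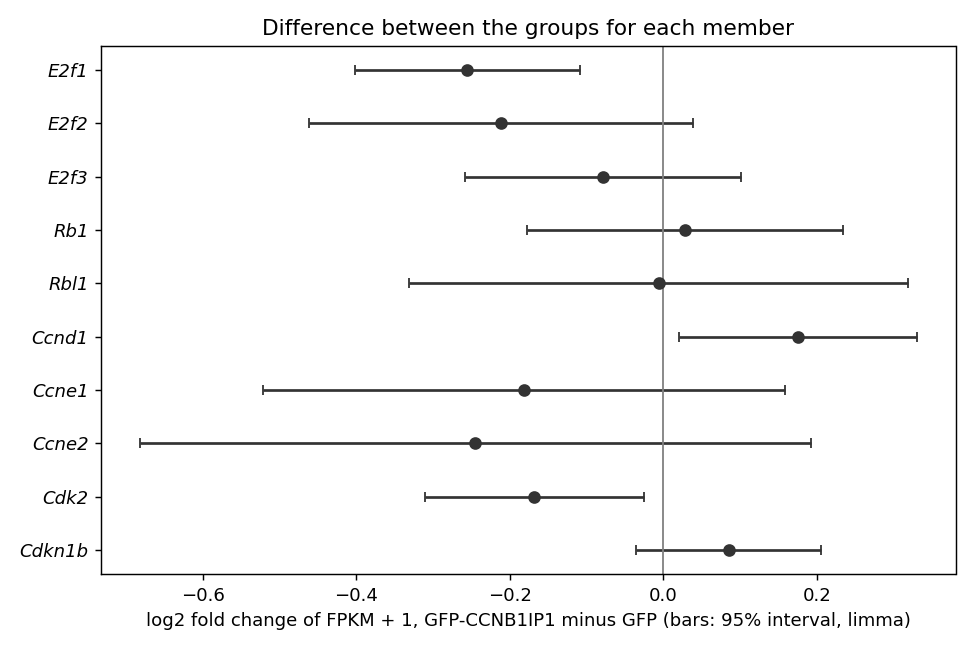
Log2 fold change of FPKM + 1, GFP-CCNB1IP1 minus GFP (horizontal axis), for each of the 10 genes, with its 95% interval from limma, not adjusted for the number of genes. The intervals of E2f1 and Cdk2 lie below 0 and that of Ccnd1 above 0, and none of the 10 genes passed after adjustment.

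The activator E2Fs are the factors that RB holds in check, and all 3 of their genes had a log2 fold change below 0. E2f1 (ENSMUSG00000027490.18, chromosome 2, 154401327 to 154411812, on a build that the sources used here do not name) had 22.0, 22.9 and 22.0 FPKM with GFP and 19.7, 17.3 and 18.6 FPKM with GFP-CCNB1IP1. Every GFP-CCNB1IP1 library was below every GFP library. The means were 22.3 ± 0.560 and 18.5 ± 1.18 FPKM (SD, n = 3), and the log2 fold change on the FPKM + 1 scale was -0.25 (SE 0.063, 95% interval -0.40 to -0.11, limma, adjusted p = 0.270). By p-value E2f1 was number 188 of the 13231 genes tested.

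E2f2 (ENSMUSG00000018983.10, chromosome 4, 135899705 to 135923368), a second activator with overlapping roles, had 8.62, 11.0 and 8.81 FPKM with GFP and 8.89, 7.82 and 7.38 FPKM with GFP-CCNB1IP1. The groups overlapped, and GFP replicate 2 was highest. The log2 fold change was -0.21 (SE 0.108, 95% interval -0.46 to 0.039, adjusted p = 0.510), and without GFP replicate 2 it was -0.109. E2f3 (ENSMUSG00000016477.19, chromosome 13, 30090558 to 30170046), which encodes both an activator and a shorter isoform that these gene values do not separate, had 6.69, 6.22 and 6.41 FPKM and 5.71, 5.97 and 6.48 FPKM. Its groups overlapped, with a log2 difference of -0.078 (SE 0.078, 95% interval -0.26 to 0.10, adjusted p = 0.746). It was -0.0427 without GFP-CCNB1IP1 replicate 1 and -0.122 without GFP-CCNB1IP1 replicate 3. The differences of E2f1, E2f2 and E2f3 from each other were not tested. E2f1 made up 58.4 ± 1.11% of the summed FPKM of the 3 genes with GFP and 56.8 ± 0.982% with GFP-CCNB1IP1 (SD, n = 3).

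The pocket protein genes showed no shift that these libraries could resolve. Rb1 (ENSMUSG00000022105.7, chromosome 14, 73421113 to 73563262), the retinoblastoma tumour suppressor, had 4.51, 4.56 and 4.64 FPKM with GFP and 4.30, 5.21 and 4.56 FPKM with GFP-CCNB1IP1. The groups overlapped, and GFP-CCNB1IP1 replicate 2 was highest. On the log2 scale the difference was 0.028 (SE 0.089, 95% interval -0.18 to 0.23, adjusted p = 0.932), and without GFP-CCNB1IP1 replicate 2 its sign turned, to -0.0365. Without GFP-CCNB1IP1 replicate 1 it was 0.0777. Rb1 was also the least precisely estimated of the 10 within a library: its deposited interval reached 24.9 to 30% above the value of its main row, where that of E2f1 reached 6.18 to 7.93%. Rb1 stood on 2 rows that were summed. The second row, from 73475986 to 73477226, lies within the span of Lpar6 and held at most 0.172 FPKM, with Lpar6 itself at 0.734 to 1.18 FPKM. Rcbtb2, at 5.68 to 6.19 FPKM, overlaps the span of Rb1 by 24171 bases. Strand of the counting is not stated, so reads in such shared stretches may not be separable.

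Rbl1 (ENSMUSG00000027641.14, chromosome 2, 156987813 to 157046454), the gene of p107 and itself an E2F target, had 7.58, 5.27 and 7.39 FPKM with GFP and 5.76, 7.41 and 6.84 FPKM with GFP-CCNB1IP1. GFP replicate 2 and GFP-CCNB1IP1 replicate 1 were low, and the groups overlapped. The log2 fold change was -0.0058 (SE 0.140, 95% interval -0.33 to 0.32, adjusted p = 0.994), so differences of up to about that interval in either direction cannot be resolved. It was -0.151 without GFP replicate 2 and above 0 without any of GFP replicate 1 (0.0751), GFP replicate 3 (0.0589) or GFP-CCNB1IP1 replicate 1 (0.0826).

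The balance of activators to pocket proteins followed from these values. The summed FPKM of E2f1, E2f2 and E2f3 was 37.3, 40.2 and 37.2 with GFP and 34.3, 31.1 and 32.5 with GFP-CCNB1IP1, with no overlap. Most of that sum was E2f1, whose groups did not overlap on their own. The summed FPKM of Rb1 and Rbl1 was 12.1, 9.82 and 12.03 in the GFP libraries and 10.1, 12.6 and 11.4 in the others. The pocket protein gene Rbl2 was not part of that sum, with means of 4.82 FPKM with GFP and 4.38 with GFP-CCNB1IP1. The ratio of the sums, which does not depend on how libraries are scaled, was 3.09, 4.09 and 3.09 against 3.41, 2.46 and 2.85. These ratios overlapped, since GFP-CCNB1IP1 replicate 1 lay above 2 of the GFP libraries. The difference of the mean log2 ratios was -0.23, with SDs of 0.234 in each group, and -0.0999 without GFP replicate 2 or -0.122 without GFP-CCNB1IP1 replicate 2. Without GFP-CCNB1IP1 replicate 1 it was -0.356. No test was made of these sums, which describe transcripts and not proteins.

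Cyclin D1, the regulatory subunit of CDK4 and CDK6, was the member with the largest positive difference. Ccnd1 (ENSMUSG00000070348.6, chromosome 7, 144483668 to 144493662) had 36.0, 38.3 and 33.8 FPKM with GFP and 42.9, 38.2 and 41.4 FPKM with GFP-CCNB1IP1. The groups overlapped narrowly, by GFP replicate 2 over GFP-CCNB1IP1 replicate 2. The means were 36.0 ± 2.29 and 40.8 ± 2.39 FPKM, and the log2 difference was 0.18 (SE 0.067, 95% interval 0.020 to 0.33, adjusted p = 0.393). The neighbouring gene LTO1, at 9.04 to 15.0 FPKM, shares 1771 bases of its span with Ccnd1. Ccnd1 made up 52.0 ± 0.805% of the summed FPKM of the D-type cyclin genes in the GFP libraries and 55.5 ± 1.90% in the others (SD, n = 3). Ccnd3 supplied nearly all of the rest, with 32.7 and 32.0 FPKM, and Ccnd2 was below the filter on low values at 0.871 FPKM or less.

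The cyclin E genes, whose products activate CDK2 at the start of S phase, had wide spreads within groups. The means of Ccne1 were 19.5 ± 3.88 FPKM with GFP and 17.0 ± 2.39 with GFP-CCNB1IP1, and those of Ccne2 13.7 ± 4.05 and 11.2 ± 1.89 FPKM (SD, n = 3). Ccne1 (ENSMUSG00000002068.17, chromosome 7, 37797409 to 37806959) had 15.8, 23.5 and 19.1 FPKM with GFP and 19.5, 14.8 and 16.5 FPKM with GFP-CCNB1IP1. GFP replicate 2 was highest, and GFP-CCNB1IP1 replicate 1 stood above 2 of the GFP libraries. On the log2 scale the difference was -0.18 (SE 0.147, 95% interval -0.52 to 0.16, adjusted p = 0.686), -0.0424 without GFP replicate 2 and -0.316 without GFP replicate 1. It was -0.0941 without GFP-CCNB1IP1 replicate 2 and -0.282 without GFP-CCNB1IP1 replicate 1. Ccne2 (ENSMUSG00000028212.17, chromosome 4, 11191351 to 11204779) had 10.8, 18.3 and 11.9 FPKM and 13.3, 9.61 and 10.7 FPKM. Again GFP replicate 2 was highest and the groups overlapped. The log2 fold change was -0.24 (SE 0.189, 95% interval -0.68 to 0.19, adjusted p = 0.671). It was -0.0299 without GFP replicate 2, -0.148 without GFP-CCNB1IP1 replicate 2 and -0.383 without GFP replicate 1. Ints8, at 8.20 to 8.88 FPKM, shares 5622 bases of its span with Ccne2. Ccne1 stood above Ccne2 in each library, with a ratio of 1.46, 1.28 and 1.60 with GFP and 1.47, 1.54 and 1.54 with GFP-CCNB1IP1.

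Cdk2 (ENSMUSG00000025358.17, chromosome 10, 128533808 to 128540900), the kinase partner of cyclin E, had 17.8, 18.1 and 16.6 FPKM with GFP and 15.6, 14.9 and 15.9 FPKM with GFP-CCNB1IP1. All GFP-CCNB1IP1 libraries were below all GFP libraries. The means were 17.5 ± 0.826 and 15.5 ± 0.515 FPKM (SD, n = 3), and the difference on the log2 scale was -0.17 (SE 0.062, 95% interval -0.31 to -0.025, adjusted p = 0.370). The gene of its inhibitor p27 had a log2 fold change above 0. Cdkn1b (ENSMUSG00000003031.15, chromosome 6, 134897364 to 134902476) had 28.0, 27.2 and 27.3 FPKM with GFP and 28.6, 30.5 and 28.6 FPKM with GFP-CCNB1IP1. All GFP-CCNB1IP1 libraries were above all GFP libraries, with means of 27.5 ± 0.429 and 29.2 ± 1.09 FPKM. On the log2 scale the difference was 0.085 (SE 0.052, 95% interval -0.035 to 0.21, adjusted p = 0.582). The summed FPKM of Ccne1 and Ccne2 relative to Cdkn1b was 0.952, 1.54 and 1.14 in the GFP libraries and 1.15, 0.801 and 0.952 in the others, so the groups overlapped.

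The spread within groups was graded over the 10 genes. The SD within groups on the log2(FPKM + 1) scale was 0.0394 for Cdkn1b and 0.0562 for Cdk2, below the median of 0.092 over the 9525 genes with a mean of at least 5 FPKM. It was 0.212 for Rbl1, 0.235 for Ccne1 and 0.308 for Ccne2, at percentiles 93, 95 and 97.9 of those genes. The other members lay between. E2f3 (0.065), E2f1 (0.0667), Rb1 (0.0838) and Ccnd1 (0.0863) were also below that median, and E2f2 (0.152) was above it. In both groups the libraries stood in one order for Ccne1 and Ccne2, and in the reverse order for Rbl1. GFP replicate 2 was 0.43 above its group mean for Ccne2 and 0.28 above for Ccne1, and for Rbl1 its deviation was -0.29. The deposited intervals cover the error of estimation within 1 library only, at a level that is not stated. The interval of Ccne2 in GFP replicate 2, from 16.0 to 20.6 FPKM, lay above those of the other GFP libraries, which ended at 12.4 and 14.2 FPKM. The interval of Rbl1 there, from 4.69 to 5.85 FPKM, lay below the others, which began at 6.85 and 6.69 FPKM. The intervals of Ccne2 in GFP replicates 1 and 3 overlapped each other, as did those in GFP-CCNB1IP1 replicates 1 and 3. GFP replicate 2 was picked here for its values. GFP replicate 2 was at 1.06 in relative depth.

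**Figure D3:**
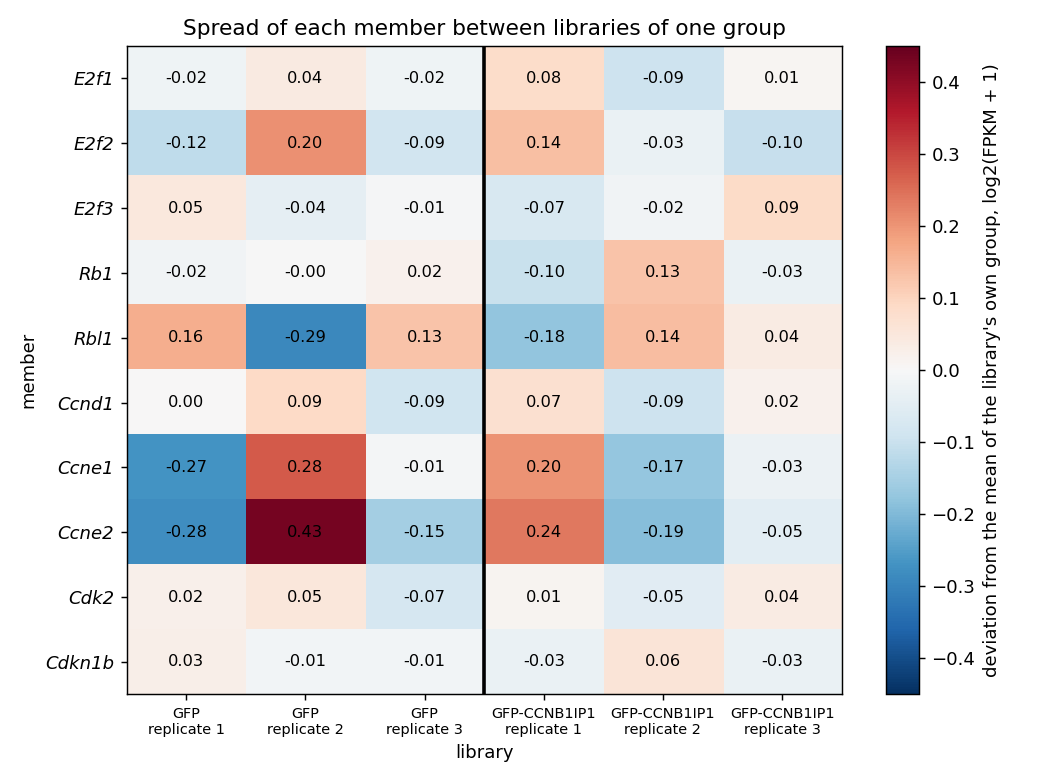
Deviation of each library from the mean of its own group on the log2(FPKM + 1) scale (colour and printed value), for the 10 genes (rows) and the 6 libraries (columns, groups parted by the black line). Ccne1 and Ccne2 deviate together and Rbl1 the opposite way, most in GFP replicate 2, where the values are 0.28, 0.43 and -0.29.

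The E2F target genes were read by library in the same way. Of 21 textbook targets measured, 12 (57.1%) were highest of their group in GFP replicate 2, against 38.1% of all genes tested. In GFP-CCNB1IP1 replicate 1 it was 14 (66.7%), against 40.9% of all genes tested. Over all genes tested, GFP replicate 2 also lay farthest from its group mean, with a median absolute deviation of 0.0717 on the log2 scale, against 0.059 to 0.0646 in the other libraries. In GFP replicate 2 the replicative helicase gene Mcm4 was 0.34 above its group mean and the licensing gene Cdc6 0.26 above, while the deviation was -0.35 for the thymidylate synthase gene Tyms and -0.16 for the ribonucleotide reductase gene Rrm1. These 4 genes were chosen after their values were seen.

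All 21 targets had a lower mean in the GFP-CCNB1IP1 libraries on the log2 scale, and none passed the test. Without GFP replicate 1, or without GFP replicate 2, it was 20 of the 21. The median log2 fold change was -0.27. With no adjustment, 10 were lower and 0 higher at p under 0.05, against 5.77% lower and 5.59% higher among all genes tested. That count of 10 was 6 without GFP-CCNB1IP1 replicate 3 and 15 without GFP replicate 3. The groups did not overlap for 11, all lower, against 8.9% of all genes tested in that direction. The thymidine kinase gene Tk1 had 53.4, 49.5 and 53.8 FPKM with GFP and 39.2, 35.2 and 38.9 FPKM with GFP-CCNB1IP1 (log2 fold change -0.46, SE 0.062, limma, adjusted p = 0.176). Mcm5, another helicase subunit gene, had 20.4, 19.8 and 20.0 FPKM against 15.8, 14.2 and 15.9 FPKM (log2 fold change -0.37, SE 0.063, adjusted p = 0.176). The cyclin A2 gene Ccna2 had 21.5, 17.8 and 20.1 FPKM against 14.6, 14.4 and 15.8 FPKM (log2 fold change -0.38, SE 0.081, adjusted p = 0.212). For each of these 3 genes, named for the smallest p-values of the list, the groups did not overlap. The lower level of replication genes in these libraries was known when the list was written, so the list is not independent evidence of its direction.

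The other genes of the pathway did not share 1 direction. Of 33 listed, 32 were measured, and 28 passed the filter on low values, which left out Ccnd2, Cdk6, Cdkn1c and Cdkn2b. None of the 28 passed the test, 8 had a log2 fold change above 0 and 20 below, and the median was -0.047. Over all genes tested 48.6% were below 0. Without GFP replicate 3 the median was -0.0853. With no adjustment, 3 were higher and 4 lower at p under 0.05, 7 in all, against 5.59% higher, 5.77% lower and 11.4% in all among the genes tested. Without GFP replicate 1 it was 4 in all. The groups did not overlap for 7 of the 28, against 17.6% of all genes tested. Of these, 5 were lower and 2 higher, against 8.9% and 8.7%.

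**Figure D4:**
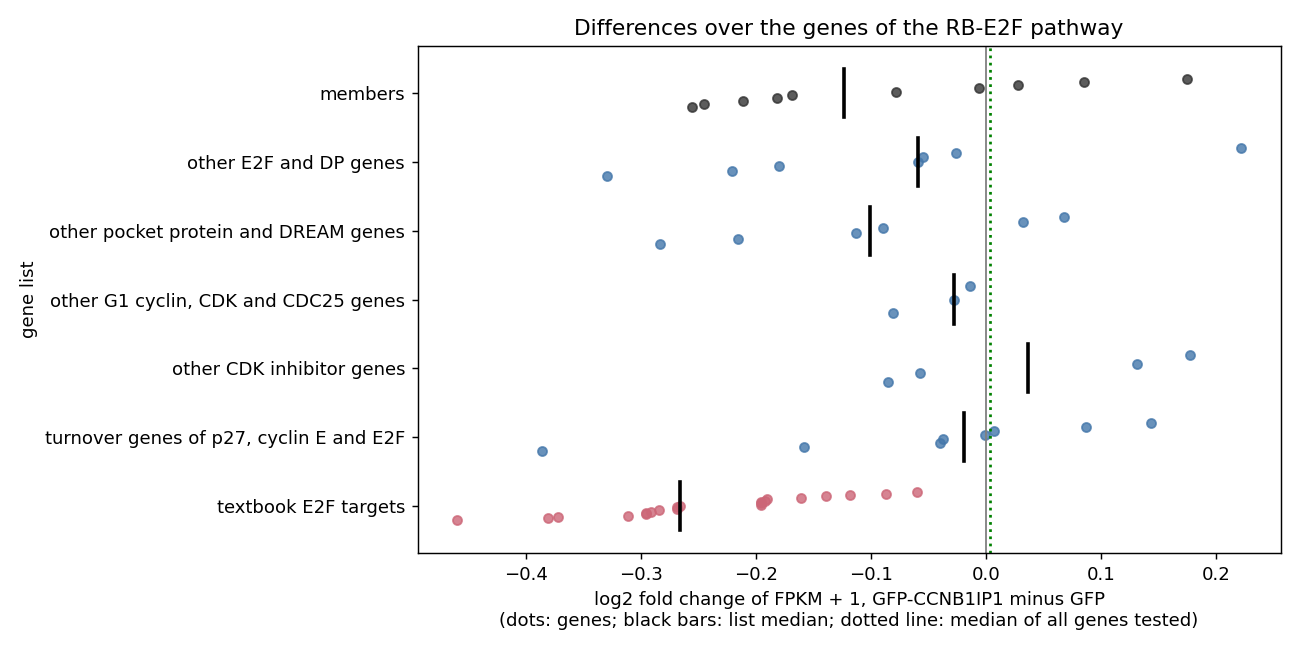
Log2 fold change of FPKM + 1, GFP-CCNB1IP1 minus GFP (horizontal axis), of each tested gene (dots) in the 10 members, 5 lists of other pathway genes and the textbook E2F targets (rows), with list medians as black bars and the median of all genes tested as a dotted line. All 21 targets lie below 0, with a median of -0.27, and the members and the other lists have genes on both sides of 0 except the 3 tested genes of the G1 cyclin, CDK and CDC25 list.

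Among the other E2F genes and their DP partners, 6 of 7 had a log2 fold change below 0. E2f5, a repressor that works with pocket proteins, was the exception, with 7.18, 6.97 and 7.21 FPKM with GFP and 8.52, 8.32 and 8.57 FPKM with GFP-CCNB1IP1. These groups did not overlap, with a log2 difference of 0.22 (SE 0.065, limma, adjusted p = 0.292). Tfdp1, the gene of the DNA-binding partner DP1, had means of 79.2 ± 1.80 and 69.9 ± 4.70 FPKM (SD, n = 3) without overlap (adjusted p = 0.323). E2f8, an atypical repressor and E2F target, had 7.54 ± 1.14 and 5.77 ± 0.611 FPKM, also without overlap (adjusted p = 0.357).

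In the list of pocket protein and DREAM complex genes, which repress cell cycle genes in quiescence, 4 of 6 tested were below 0. Mybl2, the gene of B-MYB that replaces the repressor as cells cycle, had 9.73 ± 1.01 and 7.80 ± 0.603 FPKM without overlap (adjusted p = 0.324). Lin52 had 3.09 ± 0.553 and 2.53 ± 0.541 FPKM and the histone-binding gene Rbbp4 46.8 ± 1.39 and 49.2 ± 3.11, and in both the groups overlapped.

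Of the kinases that cyclin D activates, Cdk4 was abundant and Cdk6 was not. Cdk4 had 167 ± 12.6 and 165 ± 11.1 FPKM, and Cdk6 was at 0.0103 FPKM or less in each library. Cdc25a, the phosphatase that activates CDK2, had 10.5 ± 0.220 and 9.89 ± 0.0501 FPKM without overlap (log2 fold change -0.081, adjusted p = 0.656). Of the other CDK inhibitors, Cdkn2a had 114 ± 10.1 and 129 ± 7.11 FPKM (log2 fold change 0.18, adjusted p = 0.411); the gene encodes the CDK4 inhibitor p16 and, in another frame, ARF, which these values do not separate. Cdkn1a, the gene of p21, had a log2 fold change of 0.131 and Cdkn2d one of -0.085, with overlapping groups in both. The value of Cdkn1a was 0.0555 without GFP-CCNB1IP1 replicate 1, 0.0632 without GFP replicate 1 and 0.225 without GFP replicate 2. That of Cdkn2d was -0.023 without GFP replicate 2 and -0.153 without GFP replicate 3.

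Of 8 genes that act in the turnover of p27, cyclin E and E2F or restrain it, 5 were below 0. Fbxo5, the gene of the inhibitor EMI1 and an E2F target, had 20.0 ± 2.23 and 15.1 ± 1.78 FPKM (SD, n = 3), and the difference on the log2 scale was -0.39 (SE 0.107, adjusted p = 0.283) without overlap. Rbx1, the RING subunit of the cullin ligases, had 88.1 ± 0.757 and 97.5 ± 3.80 FPKM, and the log2 difference was 0.14 (SE 0.046, adjusted p = 0.321), also without overlap. Cul1 had 26.8 ± 1.86 and 28.5 ± 0.933 FPKM, with overlap of the groups.

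The genes whose profile over the 6 libraries lay nearest to that of E2f1 were not members of the pathway lists. The measure was the root mean square difference of log2(FPKM + 1) values centred on each gene's mean, over 6953 genes with a mean of at least 10 FPKM, whose median was 0.16. The 5 nearest were Nelfcd (0.0344), a subunit of the negative elongation factor, the histone variant gene H2az1 (0.0387), the tubulin gene Tuba1a (0.0394), Tub (0.0396) and Gnb3 (0.0398). Nelfcd had 26.7, 26.5 and 25.1 FPKM with GFP and 23.7, 20.8 and 22.8 FPKM with GFP-CCNB1IP1. Of the other members Cdk2 was nearest to E2f1, at 0.0632, and Rbl1 farthest, at 0.251.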

How the data were processed

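The deposited tables hold FPKM per gene with the bounds of a confidence interval, 1 table per library, computed by the authors, per the file headers. The submitters' processing notes list HISAT2 and Cufflinks and give no version. The sources used here give no genome build, annotation release or interval level. Each table had 53537 rows, and rows of one identifier were summed to 53492 genes. Start positions in the tables count from 0, and 1 was added. FPKM were used as deposited. Log2(FPKM + 1) was tested over the 13231 genes with a mean of at least 1 FPKM in limma 3.58.1 (R 4.3.3) with a trend of variance on mean level, without a block and with Benjamini-Hochberg adjustment, called at an adjusted p under 0.05. Fold changes on this scale understate those of low genes. No exact permutation test was run, since 0.1 is the smallest p that 3 against 3 allows. Read totals are not in the tables; relative depth was estimated from the deposited intervals of 2244 genes and ranged from 0.742 to 1.06. Ccnb1ip1 was below the filter.

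The members, lists and alternatives were chosen with earlier results of these data known. Named genes were all 10 members, the 3 genes of each other list with the smallest p-values, Ccnb1ip1, and the 5 genes nearest to E2f1; genes named to explain a count or an overlap fall outside this rule. Of the listed genes, Lin54 and Cdt1 are not analysed here, and Skp1a was read as Skp1. The alternatives were pseudocounts of 0.1 and 5, no filter, a mean of at least 5 FPKM, median-of-ratios scaling, TPM, a replicate block, limma without the trend and each library left out. The fit was run on simulated data with noise independent between genes, which does not mimic deviations that genes share within a library. No sequences are shown.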

Additional observations from a re-analysis of the deposited data

How the results depend on the processing

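Under all 14 alternatives 0 of the 10 members passed, with the smallest adjusted p among them between 0.226 and 0.471, and 0 of the other pathway genes and 0 of the textbook targets passed. From 0 to 4 of all genes passed. With the replicate number as a block 0 members passed, and at an unadjusted p under 0.05 there was 1 member, against 3 without the block; the same count of 1 was found when replicate 1 of GFP, or replicate 1 of GFP-CCNB1IP1, was left out. The sources used here do not say whether equal numbers pair the libraries. Between libraries of equal number, deviations from the group means correlated at 0.0226, -0.0093 and -0.0107 over the genes tested. Between libraries of unlike number the correlations ran from -0.0375 to 0.0459, and not every library correlated best with its own number. Such values cannot show how the libraries were handled. The other pathway genes at an unadjusted p under 0.05 numbered 4 without GFP replicate 1, against 7, and the targets from 6 without GFP-CCNB1IP1 replicate 3 to 15 without GFP replicate 3, against 10, with 12 under the replicate block and 13 under TPM and without GFP-CCNB1IP1 replicate 1. From 20 to 21 targets were below 0, with a median between -0.33 and -0.195. With a mean of at least 5 FPKM, 20 targets were tested and all 20 were below 0. Rb1 left the test under that filter.

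Of 139 values of members under alternatives, 4 had the other sign, all with 1 library left out: Rb1 (-0.0365, range to 0.0777) and Rbl1 (0.0751, 0.0589 and 0.0826, range from -0.151). So had Ccnd3 without GFP replicate 2 (0.0421, range from -0.0885) and Cdk4 without GFP replicate 1 (0.0233), GFP replicate 3 (0.0127), GFP-CCNB1IP1 replicate 2 (0.0176) and GFP-CCNB1IP1 replicate 3 (0.00946, range from -0.0773). With 1 library left out, the difference of the log2 ratio of E2F to pocket protein genes ranged from -0.356 to -0.0999, and that of Ccne1 to Ccne2 from -0.0116 to 0.149. The cause of these shifts was not tested. The deposited intervals, widest for Rb1, limit how small a difference can be read.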
